A study of Mus musculus with 24 samples.

Results

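The 32 genes described here are genes of myelin and of mature oligodendrocytes, chosen by name among 24394 genes in the deposited table, and all 32 were found there. Myelin is the multilayered membrane that oligodendrocytes wrap around axons in the brain. Its compact part is held together by basic proteins such as Mbp and Mobp, its surfaces carry adhesion proteins such as Mog and Mag, and its lipids are rich in galactosylceramide and sulfatide. Astrocytes, the cells that the study sorted, are not known to form myelin, although several of the members (Car2, Cryab, Mbnl2, Sirt2, Gsn and Nfasc) are also used by other brain cells. The study measured RNA of fluorescence-sorted mouse astrocytes of 2 genotypes, labelled KO (a conditional knockout of Nfix, a transcription factor of the nuclear factor I family) and WT (control), in 4 brain regions: olfactory bulb, hippocampus, cortex and thalamus. Each of the 8 groups held 3 libraries, 24 in all. Which Cre line drove the deletion, which part of Nfix it removed, and the age and sex of the mice are not given in the sources used here, nor are batches. Nothing in the labels ties the libraries of a group to separate animals, so a p-value here reflects the spread between libraries alone, which could be technical.

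Nfix itself went against the labels. Its mean in normalized reads (reads divided by the authors' size factor of the library) was higher in the KO-labelled than in the WT-labelled libraries of every region, with 4693 ± 1347 against 2448 ± 96.8 in the olfactory bulb and 6947 ± 4403 against 3137 ± 440.2 in the thalamus (SD, n = 3 each), and no region passed the test (limma, adjusted p of 0.854 or more). The genotype names below are therefore those of the labels. Library totals ran from 8908218 to 25616591 reads in 22 libraries, with 7509 to 11984 genes above 0. The other 2 libraries were thalamus KO-labelled replicate 3, with 2517487 reads and 2220 genes, and cortex WT-labelled replicate 3, with 4803663 reads and 3871 genes. The summed level of 10 astrocyte markers was 11426 and 18355 CPM (reads relative to the library total) in these 2 libraries, against 38380 to 98782 CPM in the other 22, with 3 and 2 of the 10 at 0. Hippocampus WT-labelled replicates 2 and 3 were more alike than any other pair within a group (Pearson correlation 0.852 across genes, against at most 0.655), so results there are also given with the pair averaged.

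Promoters are shown for 5 members that the results turn on. Mobp, Plekhb1 and Mal had their highest levels in the same library, and Mog had no read in that library. Nkx6-2 was called in the WT-labelled thalamus against the mean of the other regions, with limits given below. RefSeq (GRCm38.p6) gave a promoter, from 250 bases before to 50 bases after the gene's start, for 23 of the 32 members. The windows are chr9:120149492-120149791 (plus strand) for Mobp, chr7:100662345-100662644 (minus strand) for Plekhb1, chr2:127656646-127656945 (minus strand) for Mal, chr17:37023349-37023648 (minus strand) for Mog and chr7:139582748-139583047 (minus strand) for Nkx6-2. Each is written 5′ to 3′ along the gene, and capitals mark matches, on either strand, to the SOX core ACAAAG, the MYRF core CTGGCAC or the TATA box TATAAA.
Mobp: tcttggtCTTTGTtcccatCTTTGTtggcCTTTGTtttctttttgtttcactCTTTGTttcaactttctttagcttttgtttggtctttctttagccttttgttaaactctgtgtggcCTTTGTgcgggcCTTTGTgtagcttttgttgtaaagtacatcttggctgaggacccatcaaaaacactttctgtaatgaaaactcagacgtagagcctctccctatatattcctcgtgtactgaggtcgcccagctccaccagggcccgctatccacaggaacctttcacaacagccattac
Plekhb1: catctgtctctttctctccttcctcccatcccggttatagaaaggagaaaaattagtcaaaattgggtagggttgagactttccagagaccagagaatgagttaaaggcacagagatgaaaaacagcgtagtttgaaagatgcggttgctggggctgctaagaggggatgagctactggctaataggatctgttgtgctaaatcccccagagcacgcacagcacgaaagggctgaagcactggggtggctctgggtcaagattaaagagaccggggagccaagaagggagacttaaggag
Mal: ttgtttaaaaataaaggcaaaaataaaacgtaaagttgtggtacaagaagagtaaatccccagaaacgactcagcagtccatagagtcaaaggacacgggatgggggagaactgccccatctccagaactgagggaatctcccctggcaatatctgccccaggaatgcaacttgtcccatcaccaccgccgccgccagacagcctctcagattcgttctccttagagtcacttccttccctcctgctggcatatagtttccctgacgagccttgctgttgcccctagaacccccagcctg
Mog: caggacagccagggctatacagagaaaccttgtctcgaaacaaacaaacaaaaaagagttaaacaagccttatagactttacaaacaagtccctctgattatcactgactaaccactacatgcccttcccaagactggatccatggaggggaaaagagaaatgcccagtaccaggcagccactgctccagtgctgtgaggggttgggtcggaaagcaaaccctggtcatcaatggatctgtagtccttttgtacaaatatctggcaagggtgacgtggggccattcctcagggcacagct
Nkx6-2: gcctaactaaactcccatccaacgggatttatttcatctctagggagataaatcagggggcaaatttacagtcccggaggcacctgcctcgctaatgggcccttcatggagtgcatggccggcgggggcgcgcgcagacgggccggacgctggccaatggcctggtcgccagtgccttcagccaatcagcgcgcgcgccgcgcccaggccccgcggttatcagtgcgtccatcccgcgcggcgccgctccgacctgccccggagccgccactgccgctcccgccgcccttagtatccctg
The Mobp window held 6 matches to the SOX core, all on the strand opposite to the gene and none overlapping another motif, and the other 4 windows held no match to any of the 3 motifs. Of the 23 member promoters, 6 held a SOX core (Cnp, Gjb1, Mag, Mbnl2, Mobp and Opalin), 3 held a MYRF core (Cnp, Mag and Opalin) and 1 held a TATA box (Aspa). Among all 32851 promoters of the table the shares were 18.7% for the SOX core, 5.01% for the MYRF core and 13.6% for the TATA box.

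The members covered a wide range of levels. Per length of merged exons, Mbp had the highest median over the 24 libraries (248 RPKM, which is CPM per kilobase). It was followed by Car2, a carbonic anhydrase (166 RPKM), Plekhb1, a membrane-binding protein with a pleckstrin homology domain (123 RPKM), the small heat shock protein Cryab (71.4 RPKM), the proteolipid Mal (71.2 RPKM) and Cnp, a phosphodiesterase of non-compact myelin (42.2 RPKM). The myelin surface proteins were lower, with median levels of 4.58 RPKM for Mog and 0.351 RPKM for Mag. Medians were 0 for Gal3st1, which makes sulfatide, for the transcription factor Nkx6-2, for the connexin Gjb1, for the phosphatase inhibitor Ppp1r14a and for Cntnap1, an axonal protein of the paranode.

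Counting 3 reads or more as detected, 7 members were detected in all 24 libraries (Mbp, Mobp, Mal, Car2, Tspan2, Mbnl2 and Plekhb1), 13 in 20 to 23 libraries, 7 in 13 to 19 libraries and 5 in 12 or fewer. At the total of each library, 3 reads corresponded to between 0.117 and 1.19 CPM, and limits of this kind cover counting error only. A single library could hold no member read where its neighbours held many: Bcas1, a marker of newly myelinating oligodendrocytes, had 0 CPM in olfactory bulb KO-labelled replicate 1, against 76.7 and 32.3 CPM in replicates 2 and 3. In all, 10 members share exon sequence with a gene on the other strand in the GENCODE annotation of GRCm38 (Cnp, Ermn, Nkx6-2, Tspan2, Bcas1, Qdpr, Cryab, Mbnl2, Sirt2 and Cntnap1). Another 2 share it with a gene on their own strand (Mobp and Trf). No source used here says whether the authors' counting used strand. Reads in the shared stretches of these members may therefore include reads of their neighbours, and the extent of the overlap was not measured.

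**Figure D1:**
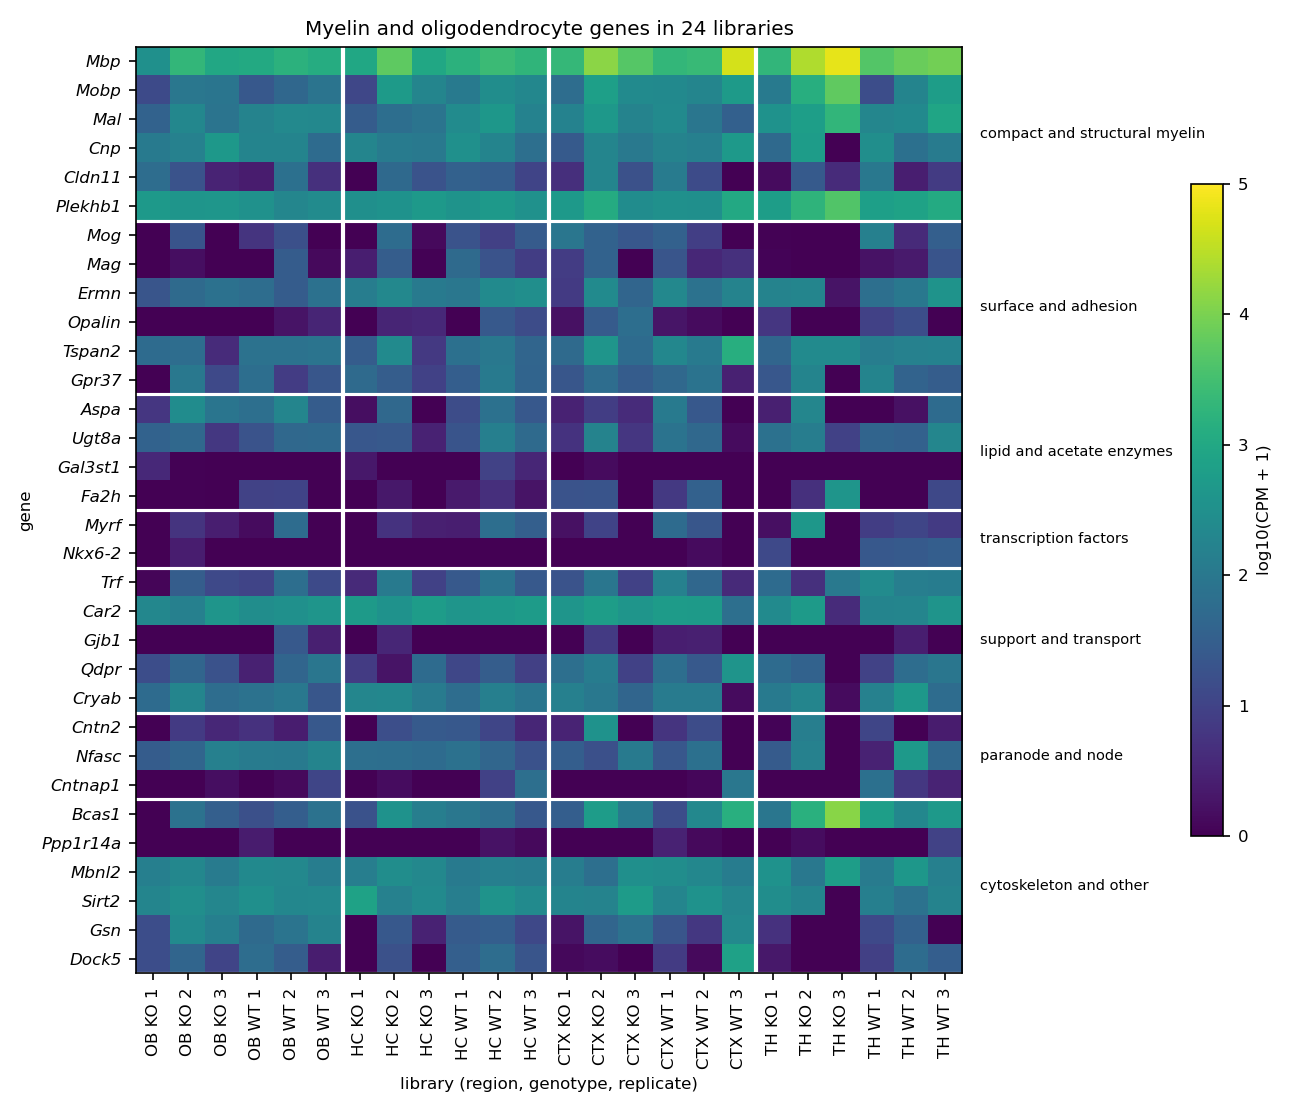
Level of each of the 32 members (rows, by role) in each of the 24 libraries (columns), as log10(CPM + 1); OB, olfactory bulb, HC, hippocampus, CTX, cortex, TH, thalamus, and KO and WT as labelled. Mbp is bright in CTX WT 3 and TH KO 3, while many other rows are at 0 in the same 2 columns.

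Reads of the members were concentrated in 2 libraries. These were set apart in part for those reads, so values without them are a description and no support for a difference in the members. The 32 members together made up 93232 CPM in thalamus KO-labelled replicate 3 and 55352 CPM in cortex WT-labelled replicate 3, against 1805 to 33748 CPM with a median of 4723 CPM in the other 22. Mbp gave most of this: it stood at 66346 CPM (95% Wilson interval 66039.5 to 66654.4) in the thalamic library and 48468 CPM (48276.7 to 48660.8) in the cortical one, against 317 to 25099.9 CPM with a median of 2057 CPM in the other 22. Mbp was the second most abundant gene of both libraries, and 2 was also its best rank among the other 22. Without Mbp the members summed to 26886 and 6883 CPM in these 2 libraries, against 1489 to 8648 CPM in the others, so that without Mbp the cortical library lay within their range. In the same 2 libraries 18 and 12 of 32 members were at 0 reads, against 1 to 12 with a median of 5 in the others, so the cortical count was reached by another library. Genes of all kinds were often at 0 in both, as the shares below give.

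**Figure D2:**
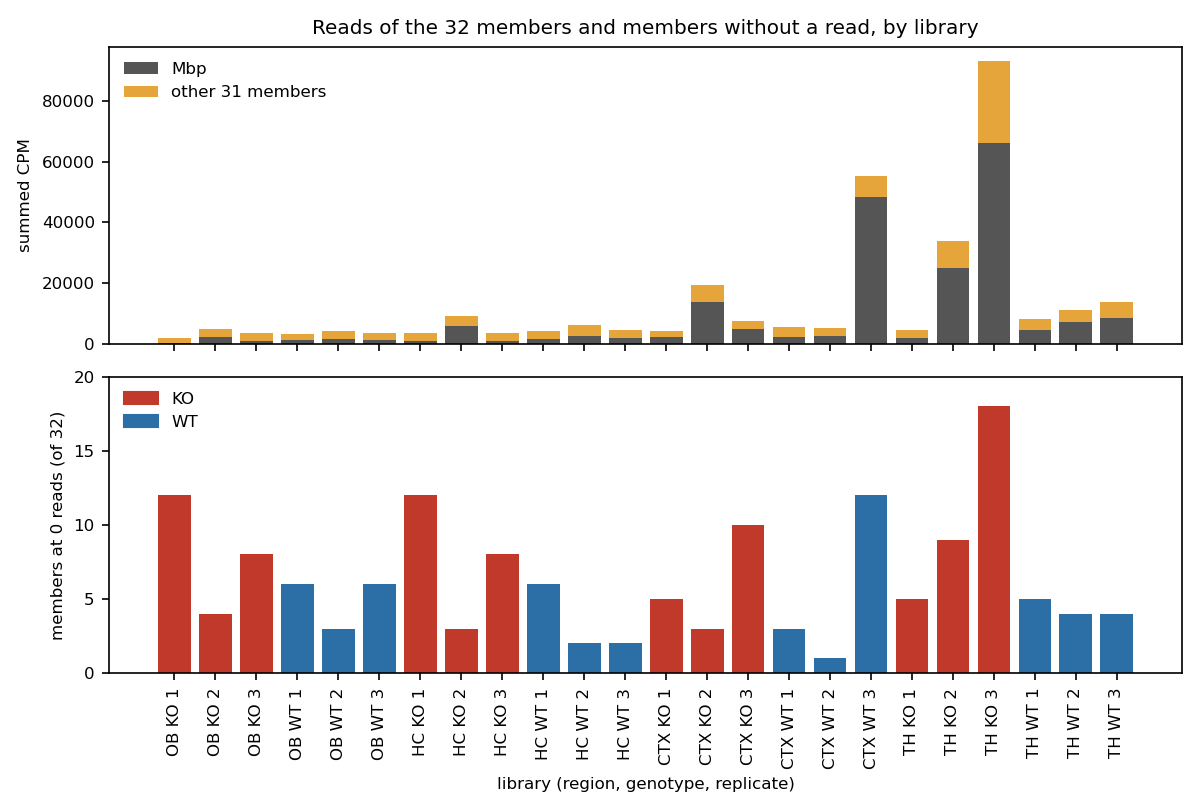
Upper panel: summed CPM of the 32 members in each library, with Mbp in grey and the other 31 members in yellow; lower panel: number of members at 0 reads, with KO-labelled libraries in red and WT-labelled libraries in blue. TH KO 3 and CTX WT 3 carry the tallest bars above (93232 and 55352 CPM), and TH KO 3 the tallest below (18 members).

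The members did not stand high together in these libraries. In thalamus KO-labelled replicate 3, 7 of 32 members were above each of the other 22 libraries: Mbp, Mobp (6099.7 CPM), Mal (1926 CPM), Bcas1 (13107 CPM), Plekhb1 (4385 CPM), the splicing factor Mbnl2 (604 CPM) and Fa2h, which hydroxylates myelin fatty acids (396 CPM). Among genes with a median of 10 CPM or more in the other 22 libraries, this was 6 of 21 members, beside 6.71% of 5409 genes, and nothing is read from the difference, since both libraries were named for their myelin reads. The 18 members without a read in the same library included Mog, Mag, Cnp, Opalin, Aspa, Myrf, Nkx6-2, Gpr37, Nfasc, Qdpr, Sirt2, Gsn and Dock5. On the same base of genes, 8 of 21 members were at 0, against a background of 70.3%. Thus Cnp, at 24.5 to 578 CPM in the other 22 libraries, was not detected in the library with the most Mbp.

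Cortex WT-labelled replicate 3 had other members on top. There 5 of 32 stood above each of the other 22 libraries: Mbp, the tetraspanin Tspan2 (1374 CPM), the pteridine reductase Qdpr (382 CPM), Cntnap1 (96.4 CPM) and Dock5, a guanine nucleotide exchange factor (717 CPM). On genes with a median of 10 CPM or more this was 3 of 21 members, beside 9.28% of genes, with the same limit, and 4 of 21 (Mog, Cldn11, Aspa and Nfasc) were at 0 reads, against 51.7%. Mbp was the single member above all other 22 in both libraries. Summed levels of 7 microglia markers were 3329 and 2418 CPM in the thalamic and the cortical library, against 3.29 to 998 CPM in the other 22, with Csf1r the highest and 5 and 2 of 7 at 0. Summed levels of 10 neuron markers were 600.2 and 1791 CPM, against 6.601 to 852 CPM, with Syp the highest and 7 and 3 of 10 at 0. The 7 fibroblast and mural markers summed to 255 and 1704 CPM, against 5.26 to 757 CPM, with Rgs5 the highest and 3 and 4 of 7 at 0. The 8 oligodendrocyte precursor markers (7 and 5 of them at 0) summed to 36.9 and 228 CPM, within the range of the others (0.721 to 459 CPM), and the 8 lineage transcription factors (Sox10, Olig1, Olig2 and others) to 0 and 288 CPM, against 22.3 to 1541 CPM. The part of these other cell types, and of the low depth, in the members' levels was not tested.

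Some libraries outside these 2 also carried much Mbp. Thalamus KO-labelled replicate 2 had 25099.9 CPM of Mbp, 1391 CPM of Mobp, 1467 CPM of Bcas1 and 445 CPM of Myrf, the transcription factor that drives myelin gene expression, but 0 reads of Mog, Mag and Opalin. Cortex KO-labelled replicate 2 had 13579 CPM of Mbp with 36.4 CPM of Mog, 37.2 CPM of Mag and 25.8 CPM of Opalin, and the highest Cldn11 (190 CPM) and Cntn2 (351 CPM) of all libraries. Libraries with much Mbp thus included some with and some without reads of these surface proteins. In bulk samples of this kind, fewer cells of a type and less RNA per cell cannot be told apart.

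**Figure D3:**
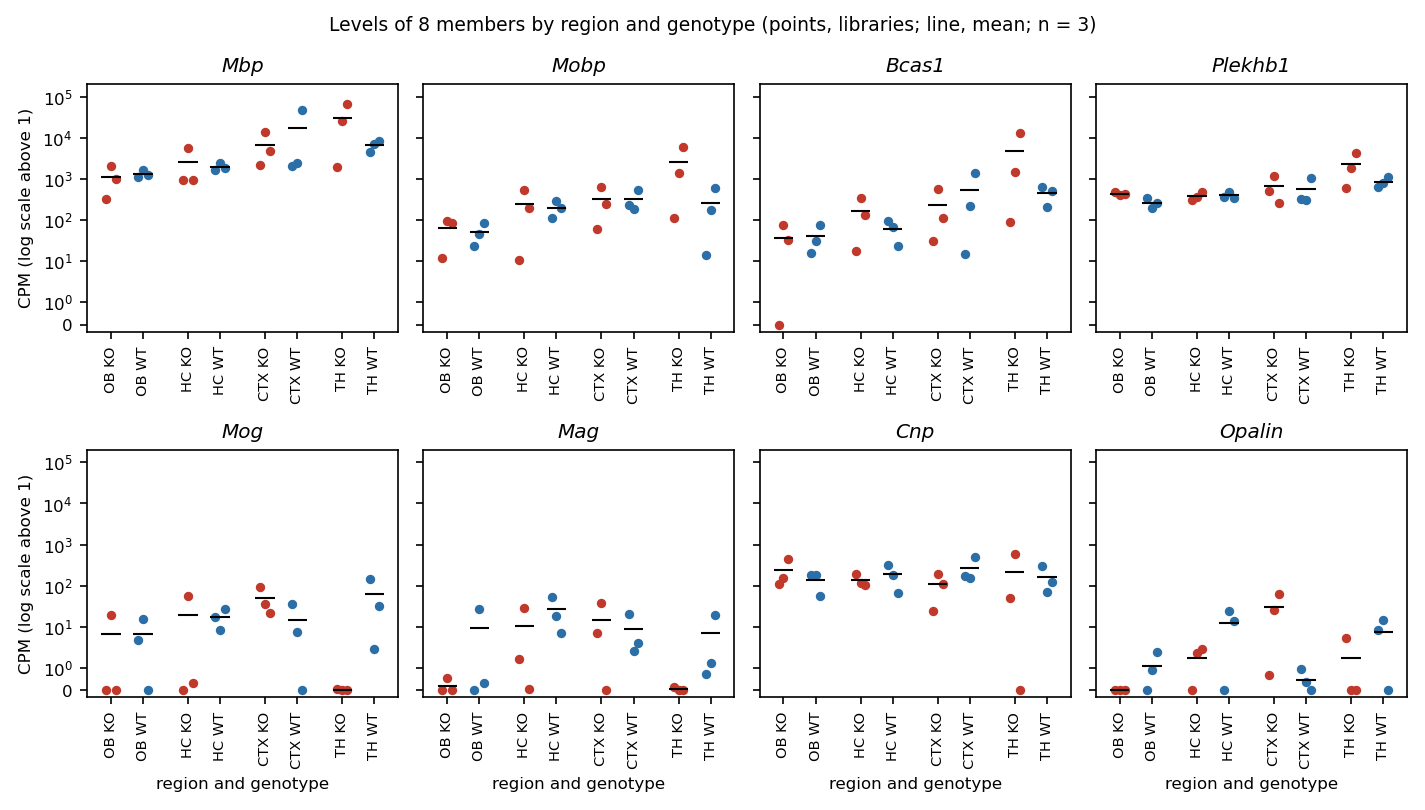
CPM of 8 members by region and labelled genotype (points, the 3 libraries of a group; black line, their mean; log scale above 1 CPM, linear below). The upper row (Mbp, Mobp, Bcas1 and Plekhb1) peaks in the thalamus KO-labelled group, in which the lower row has Mog and Mag below 1 CPM in all 3 libraries, Opalin at 0 in 2 and Cnp at 0 in 1.

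The knockout comparison asked whether the members' levels differed between KO-labelled and WT-labelled astrocytes of a region. It was made on log2(normalized reads + 10), a scale that understates the change of low genes, with limma for genes at 10 or more in at least 3 libraries, and a call was an adjusted p under 0.05 over all genes tested. Relative to CPM, normalized reads were higher in thalamus KO-labelled replicate 3 and cortex WT-labelled replicate 3 than in all other libraries. Mobp had 151980 normalized reads at 6099.7 CPM in the thalamic one, against 16289 at 1391 CPM in thalamus KO-labelled replicate 2. The log2 differences therefore cannot be worked out from the CPM given beside them. Of the members, 24 were tested for the olfactory bulb, 28 for the hippocampus, 26 for the cortex and 28 for the thalamus. No member was called in any region, beside a background of 0% of genes for the olfactory bulb, 0.0109% for the hippocampus (all of it lower), 0% for the cortex and 0% for the thalamus. At an unadjusted p under 0.05 the counts of members were 0, 2, 0 and 4 in that order, beside 4.01%, 6.27%, 2.44% and 3.82% of all genes. On whole reads recovered from the deposited values, edgeR called 0 members in each region, beside 0%, 0%, 0.105% and 0.0113% of genes. DESeq2 called 0, 0, 0 and 1 (Mog in the thalamus), beside 1.13%, 3.75%, 0.744% and 6.17% of genes, so its count in the thalamus was not above the background. Both count tools left out thalamus KO-labelled replicate 3 and WT-labelled replicate 1. Most standard errors were large: the median standard error over the tested members on the log2 scale was 1.09 for the olfactory bulb, 1.14 for the hippocampus, 1.99 for the cortex and 2.23 for the thalamus.

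In the olfactory bulb, 17 of 24 tested members were lower and 7 higher in the KO-labelled libraries, with a median log2 difference of -0.43, beside a median of -0.04 for all genes, of which 51.6% were lower and 48.4% higher. The counts were the same when scaled by library total or by TMM factors. Without KO-labelled replicate 1, however, 12 of 24 were lower and the median was 0.03. Mal had 36.0, 203 and 81.4 CPM in the KO-labelled libraries, against 169, 221 and 219 CPM in the WT-labelled ones. The groups overlapped through KO-labelled replicate 2, and the log2 difference was -1.20 with an SE of 0.71 (limma, adjusted p = 0.999987). Plekhb1 had 487, 403 and 426 CPM in the KO-labelled libraries, against 336, 193 and 253 CPM in the WT-labelled ones. It was the single tested member with every KO-labelled library above every WT-labelled one (background 4.37%), with a difference of 0.83 (SE 0.50, limma, adjusted p = 0.999987).

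Mbp had 317, 2065 and 979 CPM in the KO-labelled olfactory bulb libraries, against 1098, 1657 and 1244 CPM in the WT-labelled ones, with the KO-labelled values on both sides of the others (log2 difference -0.56, SE 0.34). Tspan2 had 54.5, 59.9 and 3.15 CPM in the KO-labelled libraries, against 74.0, 74.2 and 82.8 CPM in the WT-labelled ones, so every KO-labelled value was below (background 4.69%), at -1.65 (SE 1.13). Next by p came the adhesion protein Nfasc (-1.21) and Cnp (0.77). Mobp ranged from 12.1 to 94.8 CPM in the KO-labelled libraries, against 23.0 to 84.4 CPM in the WT-labelled ones, and Mog was read in 1 of 3 KO-labelled libraries (19.3 CPM), against 2 of 3 WT-labelled ones (4.73 and 15.5 CPM). Mag, the periaxonal adhesion protein, had 0, 0.541 and 0 CPM, against 0, 27.1 and 0.337 CPM, and was not tested. Cnp had 112, 155 and 453 CPM in the KO-labelled libraries, against 176, 177 and 54.9 CPM in the WT-labelled ones, with overlap.

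In the hippocampus, 22 of 28 tested members were lower and 6 higher in the KO-labelled libraries, with a median log2 difference of -1.02, beside a median of -0.16 for all genes, of which 55.2% were lower and 44.8% higher. The median was -0.55 without WT-labelled replicate 2 and -0.50 without KO-labelled replicate 1. With WT-labelled replicates 2 and 3 averaged it was -0.93 with 21 of 27 lower, and on the recovered reads it was -0.23 with edgeR, with 17 of 28 lower and 11 higher, and -0.24 with DESeq2, with 19 of 31 lower and 12 higher. By role, with limma, 6 of 6 structural, 6 of 6 surface and 4 of 4 lipid and acetate enzyme genes were lower, as were 1 of 1 transcription factors, 1 of 2 paranode and node genes, 2 of 4 support genes and 2 of 5 cytoskeletal and other genes. The surface list also holds Ermn, an actin-binding protein. Some of these differences were small beside their SE, as for Plekhb1 (-0.07, SE 0.46), Mbp (-0.19, SE 0.84) and Cnp (-0.25, SE 0.67). No pattern by role is therefore read from the counts. With TMM factors Car2 turned lower, and no other member changed direction by scaling.

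Mal had 27.1, 63.3 and 82.0 CPM in the KO-labelled hippocampal libraries, against 252, 448 and 164 CPM in the WT-labelled ones. Every KO-labelled value was below every WT-labelled one, which held for 2 of 28 members beside a background of 6.52% (and the reverse for none, beside 5.61%), and the log2 difference was -2.34 with an SE of 0.72 (limma, adjusted p = 0.592). Over the alternatives tried for Mal it ran from -2.68 to -1.88, with adjusted p between 0.0598 and 0.998. The other such member was Dock5, with 0, 16.5 and 0 CPM in the KO-labelled libraries, against 31.04, 61.4 and 20.3 CPM in the WT-labelled ones (-3.79, SE 1.69, limma, adjusted p = 0.734).

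Aspa, which releases acetate from N-acetylaspartate, had 0.528, 47.9 and 0 CPM in the KO-labelled hippocampal libraries, against 13.8, 72.4 and 23.3 CPM in the WT-labelled ones (-2.86, SE 1.68). Ugt8a, the galactosylceramide synthase, had 22.3, 23.7 and 2.08 CPM, against 18.9, 144 and 52.5 CPM (-2.17, SE 1.32). Both overlapped between the groups, as did the next by p, Myrf (-2.84) and the actin-severing protein Gsn (-2.40). Mbp had 940.2, 5825 and 966 CPM in the KO-labelled libraries, against 1635, 2513 and 1849 CPM in the WT-labelled ones, so the highest and both lowest values were KO-labelled (-0.19, SE 0.84). The same replicate 2 led the KO-labelled group for Mobp (10.7, 530.3 and 191 CPM, against 109.6, 286 and 201 CPM in the WT-labelled libraries) and for Mog (0, 56.4 and 0.346 CPM, against 17.6, 8.04 and 26.4 CPM). It did so too for Mag (1.58, 29.1 and 0.0692 CPM, against 53.7, 17.8 and 6.94 CPM), while for Cnp replicate 1 was highest in both groups (186, 119 and 105 CPM, against 319, 179 and 66.6 CPM).

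The direction of the members' median in the cortex depended on single libraries. Of 26 tested members, 17 were lower and 9 higher in the KO-labelled libraries, with a median log2 difference of -0.24, beside a median of 0.49 for all genes, of which 39.2% were lower and 60.8% higher. The median was 0.10 without WT-labelled replicate 1, 0.18 without KO-labelled replicate 1, 0.30 without KO-labelled replicate 3 and -1.22 without KO-labelled replicate 2. Scaled by library total or TMM factors, 14 of 27 were lower and Plekhb1, Sirt2 and Ugt8a turned. These scalings moved the median of all genes by 0.11 and 0.16 in the cortex, and TMM factors moved it by -0.12 in the thalamus. Without WT-labelled replicate 3 the members' median was -0.41 and that of all genes -0.29, with 16 of 26 members lower and 10 higher, beside 59.6% of genes lower and 40.4% higher. Mbp had 2142, 13579 and 4799 CPM in the KO-labelled libraries, against 2049, 2392 and 48468 CPM in the WT-labelled ones, and its log2 difference was -0.52 (SE 1.92) with all libraries and 1.25 (SE 0.84) without the last of these.

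Tspan2 had 51.8, 412 and 56.1 CPM in the KO-labelled cortical libraries, against 203, 112 and 1374 CPM in the WT-labelled ones (-1.82, SE 1.17, and -0.47 without WT-labelled replicate 3). Cnp had 24.5, 190.0 and 106 CPM in the KO-labelled libraries, against 168, 152 and 492 CPM in the WT-labelled ones (-1.80, SE 1.33, and -0.97 without that library). Both differences were smaller without the library with few genes. Mog had 91.1, 36.4 and 21.9 CPM in the KO-labelled libraries, against 35.4, 7.55 and 0 CPM in the WT-labelled ones, with overlap (2.68, SE 2.20, and 1.30 without it). Ermn, an actin-binding protein of the myelin sheath, had 6.00, 246 and 42.2 CPM, against 213, 74.0 and 174 CPM (-2.01, SE 1.70). Next by p came Myrf (-2.08) and Mal (1.11).

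No tested member had all KO-labelled cortical libraries below or all above the WT-labelled ones, beside backgrounds of 2.88% and 4.73%. Mal had 161, 470.0 and 173 CPM, against 244, 90.3 and 33.3 CPM, and Mobp had 59.6, 652 and 248 CPM, against 234, 189 and 538 CPM. Mag had 6.88, 37.2 and 0 CPM in the KO-labelled libraries, against 20.0, 2.56 and 3.96 CPM in the WT-labelled ones. For all 3, KO-labelled replicate 2 was the highest KO-labelled library, as it was for Mbp.

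In the thalamus the direction depended on KO-labelled replicate 3. Of 28 tested members, 17 were lower and 11 higher in the KO-labelled libraries (19 and 9 when scaled by library total or TMM factors, with Myrf and Tspan2 turned), and the median of -1.30 was close to that of all genes, -1.31, of which 74.9% were lower and 25.1% higher. Without that library the members' median was 0.10 and that of all genes -0.18, with 12 of 27 members and 55% of genes lower. It was -0.54 without WT-labelled replicate 1, -0.21 without WT-labelled replicate 2 and -2.45 without KO-labelled replicate 2. Mbp had 1983, 25099.9 and 66346 CPM in the KO-labelled libraries, against 4618, 7127 and 8558 CPM in the WT-labelled ones. One KO-labelled value lay below and 2 above all the others, at a log2 difference of 1.57 (SE 1.87), or 0.10 (SE 1.48) without replicate 3.

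Mobp had 112, 1391 and 6099.7 CPM in the KO-labelled thalamic libraries, against 14.1, 179 and 603 CPM in the WT-labelled ones (3.46, SE 1.28, limma, adjusted p = 0.859, and 1.75, SE 0.90, without KO-labelled replicate 3). Mog had 0.0672, 0 and 0 CPM in the KO-labelled libraries, against 148, 2.88 and 31.5 CPM in the WT-labelled ones (-4.81, SE 2.17, and -4.79 without that library). Neither Mobp nor Mog passed the test. Mog was among 4 of 28 members with every KO-labelled thalamic library below every WT-labelled one, beside a background of 9.97%, and no member had every one above, beside 1.21%. Mog and Cntnap1 passed the filter on low values only through the 3 WT-labelled thalamic libraries, so they had to be lower once tested. Nothing is read from this count or from the sign of their differences.

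The other 3 of these 4 were Cntnap1, Dock5 and Nkx6-2. Cntnap1 had no read in the KO-labelled thalamic libraries, against 69.1, 5.57 and 2.12 CPM in the WT-labelled ones (-3.61, SE 1.77). Dock5 had 1.14, 0 and 0 CPM, against 7.69, 56.5 and 29.9 CPM (-4.40, SE 2.22). Next by p came Bcas1, with 91.0, 1467 and 13107 CPM in the KO-labelled libraries, against 647, 202 and 517 CPM in the WT-labelled ones (1.96, SE 1.00, and -0.16 without KO-labelled replicate 3), and Plekhb1 (1.41, SE 0.77, and 0.32 without it). Mal had 349, 641 and 1926 CPM, against 193, 239 and 850.4 CPM, Cnp 49.2, 578 and 0 CPM, against 293, 69.4 and 119 CPM, and Mag 0.134, 0 and 0 CPM, against 0.742, 1.27 and 19.0 CPM.

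**Figure D4:**
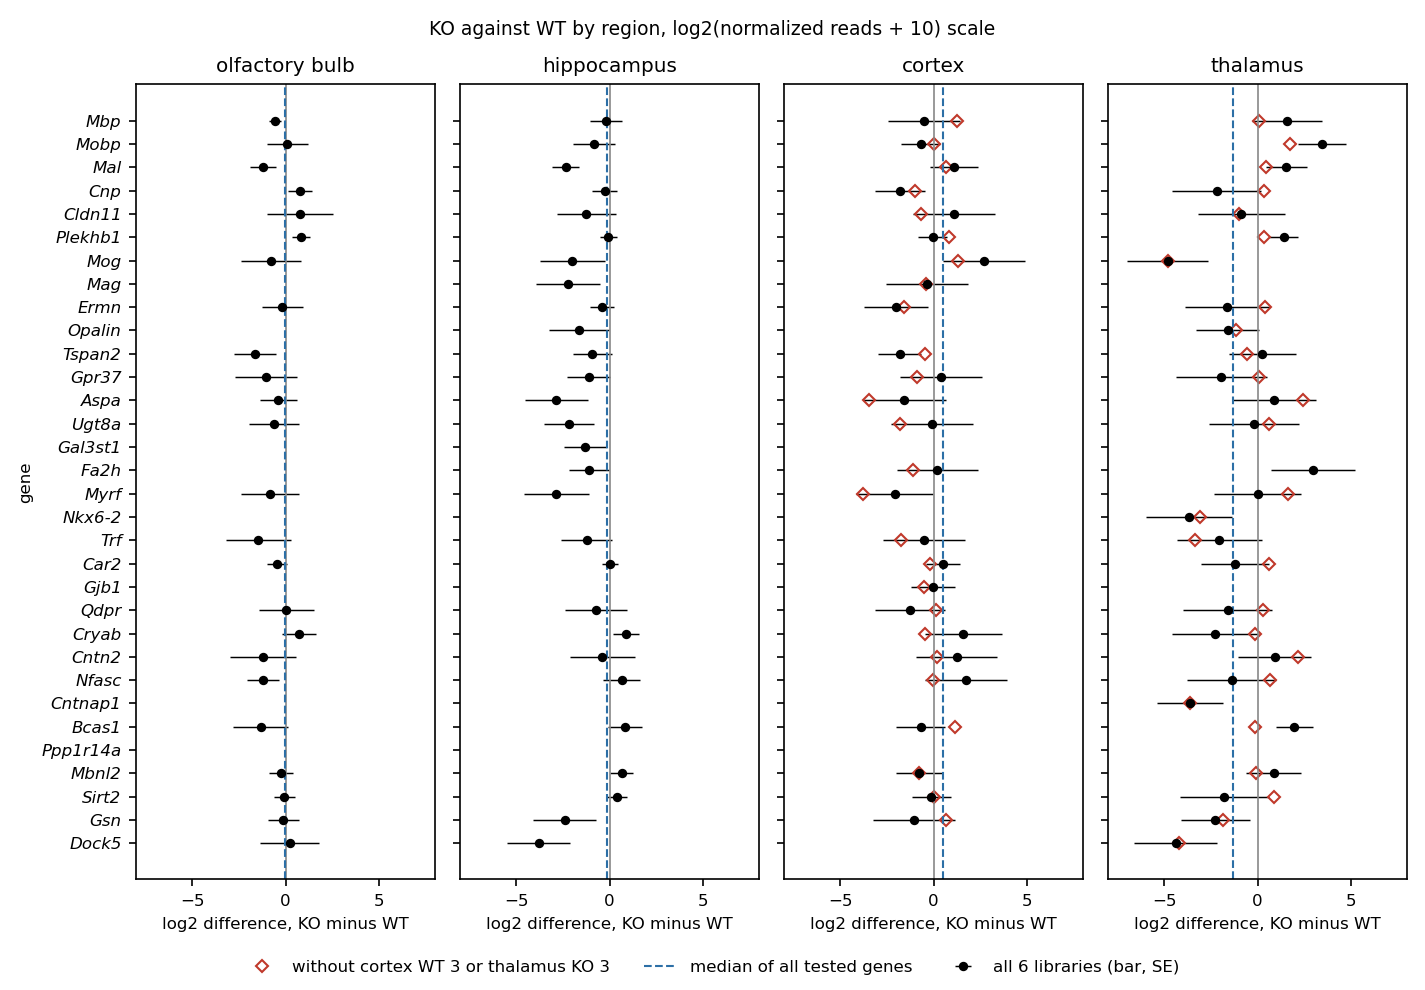
Log2 difference of each tested member, KO-labelled minus WT-labelled, in the 4 regions (black point and bar, estimate and SE with 6 libraries; red diamond, estimate without CTX WT 3 or TH KO 3; dashed line, median of all tested genes). In the hippocampus 22 of 28 points lie below 0, and in the thalamus the red diamonds of Mbp, Bcas1 and Plekhb1 lie near 0.

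Averaged over the 4 regions, 25 of 32 members were lower and 7 higher in the KO-labelled libraries, beside 59.7% of all genes lower and 40.3% higher, and the counts were the same by library total and TMM factors. Ppp1r14a and Cntnap1, which are among the 25, passed the filter on low values only through WT-labelled libraries, so nothing is read from their direction. The median log2 difference was -0.55, beside -0.17 for all genes, and -0.57 with 24 members lower without the 2 libraries with few genes (background 57.9%). All 6 genes of the surface list, all 4 lipid and acetate enzymes and both transcription factors were lower. So were 4 of 5 support genes, 2 of 3 paranode and node genes, 4 of 6 cytoskeletal and other genes and 3 of 6 structural genes. Some of these differences were small beside their SE, as for Fa2h (-0.05, SE 0.87), Gal3st1 (-0.11, SE 0.41) and Opalin (-0.19, SE 0.76), so no pattern by role is read from the counts. No member was called (limma, background 0%; 2 at an unadjusted p under 0.05, background 4.86%), edgeR called 0 (background 0%), and DESeq2 called 2, Cntnap1 and Dock5, which is near its background of 7.18% of genes.

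Dock5 averaged -3.05 (SE 0.91, limma, adjusted p = 0.971) over the regions, and -2.28 (SE 0.87) without the 2 libraries. Its highest level was that of cortex WT-labelled replicate 3, 717 CPM, while the KO-labelled cortical libraries had 0.270, 0.490 and 0 CPM and the other WT-labelled ones 6.38 and 0.312 CPM. Cntnap1 averaged -2.56 (SE 0.78, limma, adjusted p = 0.971), and -1.96 (SE 0.72) without the 2 libraries. Each library in which it reached 10 normalized reads was WT-labelled, so it passed the filter only through the group where it was high and had to be lower, and nothing is read from its test. Of the KO-labelled libraries it was read in olfactory bulb replicate 3 (0.565 CPM) and hippocampus replicate 2 (0.449 CPM), and of the WT-labelled ones in 9 of 12, at up to 96.4 CPM. Mag (-1.56), Gsn (-1.46), Nkx6-2 (-0.85) and the iron carrier transferrin, Trf (-1.31), came next by p.

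Whether the difference between KO-labelled and WT-labelled libraries itself differed between regions was tested with an F test over the 3 interaction terms. No member was called (limma, background 0%; 2 at an unadjusted p under 0.05, background 4.58%), and neither edgeR (background 0.00743%) nor DESeq2 (background 0.0934%) called one. The smallest p belonged to Nkx6-2, whose highest and lowest regional log2 differences were 4.11 apart, and to Mog, where they were 7.49 apart (limma, adjusted p = 0.939 for both). They were followed by Opalin, a sialylated membrane protein of oligodendrocytes (4.99), Mal (3.88), Mobp (4.28) and Fa2h (5.15).

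The WT-labelled libraries alone were used to compare the members between regions. Set against the mean of the other regions, the WT-labelled thalamus was higher for 19 of 31 tested members, and lower for 12, beside 49.2% and 50.8% of all genes, with a median log2 difference of 0.31, beside -0.02 for all genes. One member was called, Nkx6-2, a homeodomain transcription factor of oligodendrocyte maturation, beside a background of 0.135% of genes called in either direction and 0.063% called higher (0.072% lower). At an unadjusted p under 0.05 there were 4 members, beside 5.73% of genes. The gene (chr7:139579376-139582797 on the minus strand of GRCm38) has 4 merged exons and shares exon sequence with Inpp5a on the other strand. It had 23.0, 25.6 and 30.9 CPM in the thalamus, against 0.375 CPM in cortex WT-labelled replicate 2 and 0 in the other 8 WT-labelled libraries, so the groups did not overlap.

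The log2 difference of Nkx6-2 was 4.85 (SE 1.05, limma, adjusted p = 0.0199). It passed the filter on low values only through the 3 thalamic libraries in which it was high, so among tested genes it had to differ. Nothing is read from a call made after that filter. With no filter its adjusted p was 0.00667 (limma, background 0.0731%). It was also called by edgeR (adjusted p = 0.0148, background 1.28%) and DESeq2 (adjusted p = 0.00422, background 6.17%), and these calls are given as counts and not as support. The limma call was lost at an unchanged difference without olfactory bulb WT-labelled replicate 1, 2 or 3 (limma, adjusted p of 0.0544, 0.0632 and 0.0656), without hippocampus WT-labelled replicate 2 or 3 (0.103 and 0.0971) and with these 2 averaged (0.102). Without any 1 of the thalamic libraries limma did not test the gene, since it then reached 10 in fewer than 3 libraries. The edgeR and DESeq2 calls rest on WT-labelled thalamus replicates 2 and 3, since replicate 1 was not in the count tests. Among the KO-labelled libraries, Nkx6-2 had 11.49 CPM in thalamus replicate 1 and 1.47 CPM in olfactory bulb replicate 2 and 0 in the other 10, including thalamus replicates 2 and 3.

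For Mbp, Bcas1 and Plekhb1, the size of the difference and the call in this comparison depended on cortex WT-labelled replicate 3. Mbp had 4618, 7127 and 8558 CPM in the thalamus, against 1098, 1657 and 1244 CPM in the olfactory bulb, 1635, 2513 and 1849 CPM in the hippocampus and 2049, 2392 and 48468 CPM in the cortex. Every thalamic value was above 8 of the other 9 libraries and below the last. Its log2 difference was 1.39 (SE 1.02, limma, adjusted p = 0.840) with all libraries and 1.98 (SE 0.19) without that library. Without it, log2 differences were 3.21 (SE 0.75) for Bcas1 and 1.501 (SE 0.36) for Plekhb1, and limma called 4 members (these 3 and Nkx6-2), beside 0.815% of genes. Because the library had been set apart for its myelin reads, and Mbp was the largest part of them, these calls are given as counts and not as a test of Mbp, Bcas1 or Plekhb1.

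Bcas1 had 647, 202 and 517 CPM in the thalamus, against 14.5 to 96.3 CPM in 7 of the other WT-labelled libraries and 219 and 1411 CPM in cortex replicates 2 and 3. Plekhb1 had 652, 776 and 1128 CPM in the thalamus, against 193 to 491 CPM in 8 of the other libraries and 1046 CPM in cortex replicate 3. With all libraries their log2 differences were 2.60 (SE 1.03) and 1.21 (SE 0.57), and neither was called. Trf had 253, 135 and 125 CPM in the thalamus, against 2.91 to 153 CPM elsewhere (2.55, SE 1.25). Aspa (-2.75) and Gsn (-2.36), next by p, were lower in the thalamus on average.

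Across all 4 regions of the WT-labelled libraries, an F test called no member, beside 0.252% of genes (limma; 2 members at an unadjusted p under 0.05, background 6.79%). The smallest adjusted p was that of Nkx6-2 (0.0821), whose highest and lowest regional means were 4.90 apart on the log2 scale. It passed the filter only through the thalamic libraries in which it was high, so nothing is read from its place or its calls after the filter. Next by p were Bcas1 (3.68 apart), Plekhb1 (1.80), Mobp (2.90), Tspan2 (2.46) and Aspa (3.96). Without cortex WT-labelled replicate 3 limma called Mbp (2.42 apart) and Nkx6-2, beside 1.27% of genes, with the same limit on reading the call of Mbp. Nkx6-2 was also called with no filter (background 0.226%) and by DESeq2 (background 1.44%), and edgeR called no member (background 1.94%). By mean level Mbp ordered the regions as cortex (17636 ± 26702 CPM), thalamus (6768 ± 1994 CPM), hippocampus (1999 ± 458 CPM) and olfactory bulb (1333 ± 290.2 CPM; SD, n = 3 each). The first place of the cortex rests on WT-labelled replicate 3: the other cortical libraries, at 2049 and 2392 CPM, overlapped the hippocampus and lay below every thalamic one.

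**Figure D5:**
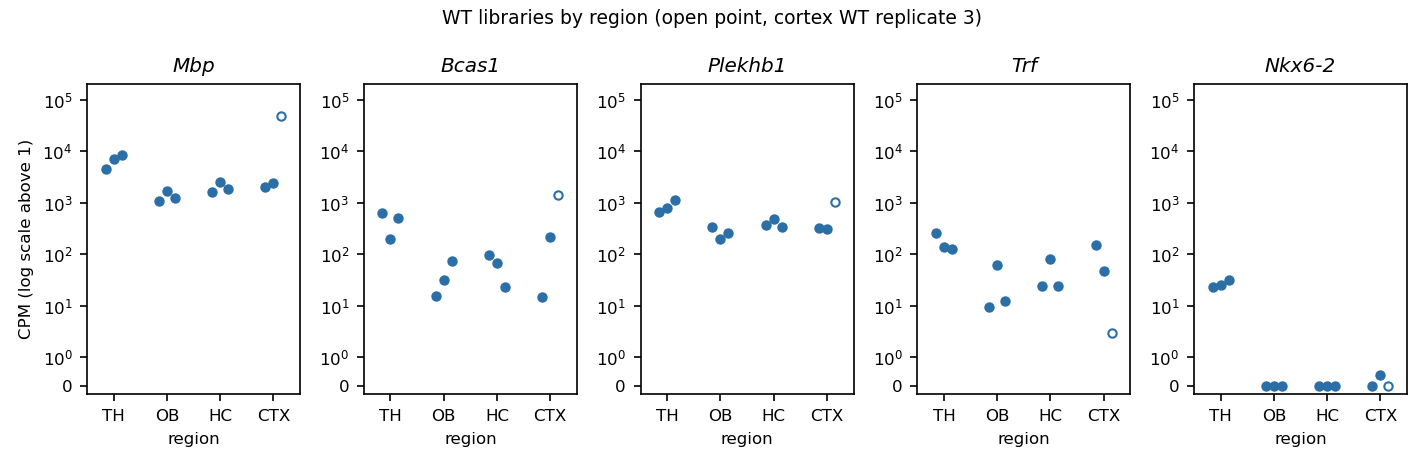
CPM of 5 members in the WT-labelled libraries of the thalamus (TH), olfactory bulb (OB), hippocampus (HC) and cortex (CTX), on a scale that is logarithmic above 1 CPM; the open point is cortex WT-labelled replicate 3. Nkx6-2 reaches 23.0 to 30.9 CPM in the thalamus, and for Mbp the open point lies above the thalamic values.

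Genes around the members were read from 3 further lists. Of 40 other myelin and oligodendrocyte genes, 39 were in the table and 27 to 29 were tested in a region, and 1 was called in the knockout comparisons, the tubulin Tubb4a, lower in the KO-labelled hippocampus (-3.30, SE 0.66, limma, adjusted p = 0.0307). No other gene of any kind was called there, so Tubb4a is itself the background of 0.0109%, and the background was 0% in each other region. The call of Tubb4a was lost without hippocampus WT-labelled replicate 2 or 3 or KO-labelled replicate 3 (limma, adjusted p of 0.640, 0.478 and 0.0611), with the WT-labelled pair averaged (0.484), with edgeR (0.363), with a pseudocount of 1 (0.176) and with no filter (0.715).

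The 2 of these genes with the smallest p were Padi2 (-4.87) and Hapln2 (-3.66) in the olfactory bulb, Pex5l (-3.75) and Serpinb1a (3.88) in the cortex, and Tubb4a (-4.22) and Jam3 (-2.87) in the thalamus. Over the average of regions they were Tubb4a (-2.42) and Hapln2 (-2.07), and in the interaction Padi2 and Pex5l, none of which was called. In the WT-labelled thalamus against the other regions they were Tubb4a (1.25) and Apod (1.10). Between the 4 regions Apod, a lipid-binding lipocalin, was called (means 4.20 apart, limma, adjusted p = 0.000191, background 0.252%), followed by Tubb4a (2.52 apart).

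None of 12 genes of sphingolipid synthesis was called in any comparison (limma). Their smallest p-values were those of Kdsr (1.66) and Sptlc2 (-3.22) in the olfactory bulb, Psap (0.62) and Ugcg (-2.55) in the hippocampus, Sgms1 (2.99) and Ugcg (1.82) in the cortex and Sptlc1 (-3.39) and Sgms1 (2.58) in the thalamus. Over the average they were Sgms1 (1.60) and Sptlc2 (-1.71), and in the interaction Ugcg and Sptlc1. Between WT-labelled regions Galc and Elovl1 led both tests, at -4.76 and -2.52 in the thalamus against the others.

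None of the 8 lineage transcription factors was called either (limma). In the thalamus all 5 that were tested were lower in the KO-labelled libraries, beside 74.9% of genes, led by Olig2 (-6.25) and Tcf7l2 (-4.97), and KO-labelled replicate 3 had no read of any of the 8. The leading 2 were Olig1 (1.48) and Sox10 (1.73) in the olfactory bulb, Sox8 (-2.77) and Olig1 (-0.78) in the hippocampus, and Zfp536 (-2.35) and Sox8 (1.61) in the cortex. Over the average they were Zfp536 (-1.46) and Nkx2-2 (-1.12), and in the interaction Olig2 and Tcf7l2. In the WT-labelled thalamus against the other regions they were Olig2 (4.19) and Zfp536 (-3.10), which also led between the 4 regions.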

How the data were processed

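RNA of sorted astrocytes was measured in 24 libraries. Per the labels' protocols, libraries were made from total RNA with a kit for small inputs, and per the submitters' processing notes the tools were FastQC 0.10.1, MultiQC 0.9, STAR 2.5.0a, R 3.5.2 and DESeq2 1.20.0 on mm10. The deposited table holds signal values that are whole reads divided by 1 size factor per library, not raw counts: 100% of values were whole multiples of the value of 1 read within 0.001. Of 24421 entries, 27 with date names were left out (at most 0.255% of a library's reads). Because the values were normalized, limma 3.58.1 (trend and robust, on log2 of the deposited value + 10, genes at 10 or more in at least 3 libraries, Benjamini-Hochberg over all genes) was used, and edgeR 4.0.16 and DESeq2 1.42.0 were run only as alternatives on recovered reads, without thalamus WT-labelled replicate 1 and thalamus KO-labelled replicate 3, where 1 read was worth 0.993 and 9.90 and the recovery was not checked separately. There too the smallest value above 0 was taken as 1 read. CPM relates reads to the library total, and RPKM divides CPM by merged exon length (GENCODE, GRCm38). Regions were fitted apart for the knockout comparison and together for the average, the interaction and the WT-labelled regions. The members and lists were chosen with earlier results of these data known. Named genes followed a rule: values by library for Mbp, Mobp, Mal, Mog, Mag and Cnp and for the 4 members with the smallest p in a knockout comparison, and the log2 difference of the 6 with the smallest p in each comparison. A gene of the list of other myelin genes that the rule names is not reported here. The fits were also run on simulated counts with known changes and the same spread for every gene. Those runs check the code only and do not show how the fits behave with libraries as uneven as these. Marker lists of endothelial and Schwann cells summed to 129 and 402, and 0 and 1.04 CPM in thalamus KO-labelled replicate 3 and cortex WT-labelled replicate 3, against 0.962 to 538 and 8.67 to 304 CPM in the other 22.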

Additional observations from a re-analysis of the deposited data

How the results depend on the processing

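Pseudocounts of 1 and 100, no filter, scaling by library total or TMM factors, a replicate block, count tools, each library left out in turn and the named pairs of libraries were tried. Of 286 recomputed counts and medians of the members, 261 stayed within 1.5 times the count or within the spread between replicates. This measure is coarse. Counts of 0 that stayed at 0 are among the 261, and a median could change sign within the spread, which was 0.89 on the log2 scale for the cortex. The cortical median of -0.24 ran from -1.22 (without KO-labelled replicate 2) to 0.30 with libraries left out. The thalamic median of -1.30 ran from -2.45 to 0.10, and was 0.10 without the 2 libraries with few genes and -0.046 with edgeR and -0.26 with DESeq2, which also left out thalamus KO-labelled replicate 3 and WT-labelled replicate 1, so that tool and libraries changed together. DESeq2 called 1 member in the thalamus, 2 over the average and 1 between the WT-labelled regions. For the WT-labelled thalamus, 0 to 4 members were called with libraries left out, 4 without the 2 libraries with few genes and many myelin reads and 0 with the hippocampal pair averaged. Between the WT-labelled regions 0 to 2 were called with libraries left out, 2 without the 2 libraries and 1 with no filter. Within a region, KO-labelled and WT-labelled libraries of the same replicate number showed little correlation (from -0.07 to 0.07, with 5 of 12 KO-labelled libraries closest to their own number). Whether libraries of the same genotype and number are paired across regions was not checked. The replicate block left members called at 0 in each knockout comparison and at 1 in the WT-labelled thalamus. Over all genes in the olfactory bulb, hippocampus, cortex and thalamus, limma called 0, 1, 0 and 0 and edgeR 0, 0, 9 (1 higher and 8 lower) and 1, while DESeq2 called 79 higher and 81 lower, 248 and 271, 30 and 69, and 311 and 470. In the hippocampus 3 were called with the replicate block and with a pseudocount of 100, up to 7 with a library left out, and 0 with a pseudocount of 1 or no filter. Over the average, DESeq2 called 531 genes higher and 623 lower, against 0 by limma and edgeR. In the interaction limma called 0, or 9 with no filter and 1 without the 2 libraries, edgeR 1 and DESeq2 15. For the WT-labelled thalamus limma called 7 higher and 8 lower, edgeR 144 and 12, DESeq2 282 and 640, and limma without cortex replicate 3 35 and 55, and between the regions the counts were 28, 237, 215 and 140. The cause of these shifts was not tested. Depth limits the 2 libraries with few genes most, where 3 reads are 1.19 and 0.625 CPM.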
